A study of Mus musculus with 8 samples.

Results

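Interleukin (IL)-1β is a cytokine of innate immunity, and 7 genes that encode it, its close relative IL-18, the proteins that restrain it and the machinery that activates it were followed in myeloid cells of the mouse conjunctiva. The 7 genes were Il1b, Il1rn, Il1r2, Il18, Nlrp3, Casp1 and Pycard, chosen by name from the 754 genes on the panel. All 7 had a probe count in all 8 samples, but most of these counts did not exceed background. The samples were CD11b+ cells of 10-week-old female C57BL/6J mice, either non-stressed (NS) or taken after 5 days of desiccating stress (DS5), which combined scopolamine in the drinking water with a draft of dry air. From each condition 4 populations were sorted, namely MHCII+ cells and, among the MHCII-CD64+ cells, those with high (monocytes), intermediate (Ly6C-inter) and low (Ly6C-low) Ly6C. Each of the 8 groups was 1 sample pooled from many mice, so no difference between groups could be tested against the variation between animals or pools, and no p-values are given for single comparisons. In a sorted population, fewer cells of a type and less RNA per cell cannot be told apart.

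IL-1β and IL-18 are made as inactive precursors. The sensor encoded by Nlrp3 and the adaptor ASC encoded by Pycard assemble into the inflammasome, a complex that activates the protease caspase-1 encoded by Casp1, and caspase-1 cleaves both precursors. IL-1β then signals through its receptor, while the receptor antagonist encoded by Il1rn occupies that receptor without signaling and the receptor encoded by Il1r2 binds IL-1β as a decoy. At the ocular surface IL-1β and the NLRP3 inflammasome are known for their role in the inflammation of dry eye.

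The values are raw barcode counts from the NanoString nCounter assay, in which a probe pair binds each transcript and is counted without amplification. The total count over the 754 genes ranged from 2728 in NS monocytes to 39677 in NS MHCII+ cells, while the geometric mean of the spiked-in positive controls varied only from 858.5 to 1176. A gene was taken as measured above background where its count exceeded a limit set for each sample, the mean + 2 SD of its 8 probes without a target, which lay between 11.2 and 23.0 counts. The limit was exceeded by 291 genes in NS and 213 in DS5 MHCII+ cells, and by 24 to 110 genes in the other 6 samples. The class II gene H2-Aa had 3419 counts in NS and 2635 in DS5 MHCII+ cells and 12 to 22 counts elsewhere, as the sort required. The CD64 gene Fcgr1 was below the limit in all 6 samples sorted as CD64+, with 3 to 9 counts. The DS5 Ly6C-inter sample stood apart, with Emp1, S100a11, S100a10 and Ly6c1 making up 25.4% of its total against 1.39% to 3.14% for the same genes in the other 7 samples. The main results that rest on that sample are also given with the most abundant genes left out of the totals. Ly6c1, a gene of Ly6C, did not follow the Ly6C gates, with 583 counts in DS5 Ly6C-inter cells but 8 and 16 in NS and DS5 monocytes, 8 in NS Ly6C-inter cells, and 7 and 14 in Ly6C-low cells. Ly6c2, the other Ly6C gene among the sort markers, was not measured, so these counts do not show how well the gates separated the cells.

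Levels are given as counts per 10000 gene counts of a sample, and a log2 ratio compares these levels between a pair of samples. Each 95% interval is exact (Clopper-Pearson for ratios, Poisson for counts) and covers counting error only. The thresholds were a log2 ratio of 1.5 in either direction for DS5 over NS and of 2 for MHCII+ cells over another population. A deposited count is never below 1, so a count of 1 may be a bound.

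Of the 7 genes, 3 exceeded the limit in both MHCII+ samples, Il1b, Il1rn and Nlrp3. Their promoters are shown because these genes carry most of the counts described here. The windows are the 250 bases before the RefSeq transcription start (GRCm38.p6), printed in the direction of the gene, for Il1b at chr2:129371140-129371389 (minus strand), Il1rn at chr2:24336610-24336859 (plus strand, outermost start) and Nlrp3 at chr11:59541319-59541568 (plus strand, outermost start). Capitals mark the matches to the motifs searched.
Il1b promoter: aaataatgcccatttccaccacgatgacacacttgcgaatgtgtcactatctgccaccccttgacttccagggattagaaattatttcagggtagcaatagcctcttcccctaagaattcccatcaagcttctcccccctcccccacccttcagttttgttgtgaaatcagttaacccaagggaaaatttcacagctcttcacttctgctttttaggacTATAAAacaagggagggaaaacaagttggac
Il1rn promoter: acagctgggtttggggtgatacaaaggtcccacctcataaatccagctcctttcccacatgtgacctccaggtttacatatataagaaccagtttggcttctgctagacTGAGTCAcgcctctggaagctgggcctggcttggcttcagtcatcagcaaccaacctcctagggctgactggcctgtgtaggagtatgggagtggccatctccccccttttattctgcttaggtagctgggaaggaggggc
Nlrp3 promoter: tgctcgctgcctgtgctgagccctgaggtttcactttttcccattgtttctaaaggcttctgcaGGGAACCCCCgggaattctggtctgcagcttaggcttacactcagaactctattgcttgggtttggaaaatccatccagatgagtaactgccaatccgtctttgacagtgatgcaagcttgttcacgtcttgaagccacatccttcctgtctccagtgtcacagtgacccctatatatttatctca

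The motifs searched were kappa-B, TGANTCA (AP-1), GAGGAA (the core bound by PU.1) and TATAAA, the last on the gene's strand only and the others on both strands. The Il1b window held TATAAA from 31 to 26 bases before the start, a motif found in 7.59% of 32851 windows of mouse genes. The Il1rn window held TGAGTCA from 141 to 135 bases before the start, and TGANTCA was in 6.75% of all windows and 8.27% of panel windows. The Nlrp3 window held a kappa-B match from 186 to 177 bases before the start, against 3.90% of all windows and 8.84% of the 701 windows of panel genes. GAGGAA, in 23.3% of all windows and 32.5% of panel windows, was in none of these, and the 3 windows shared no motif of the 4. No match overlapped another. A second Il1rn start with a window at chr2:24345041-24345290 held none of the motifs. Any other start of Nlrp3 is not described here. A match is a description of the sequence and does not show that a factor binds there.

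Il1b, the agonist, was among the probes with the highest counts in most samples. In NS mice, MHCII+ cells had 319 counts, Ly6C-low cells 39, monocytes 34 and Ly6C-inter cells 25. In DS5 mice, MHCII+ cells had 290 counts, monocytes 31, Ly6C-low cells 17 and Ly6C-inter cells 11. It was above the limit in 7 of the 8 samples, the exception being DS5 Ly6C-inter cells, where the limit was 22.99 counts. Per 10000 counts, the order of Il1b levels was NS monocytes (124.6, 95% interval 86.3 to 174), DS5 MHCII+ cells (95.6), NS MHCII+ cells (80.4, 71.8 to 89.7), DS5 monocytes (78.9), NS Ly6C-low cells (67.3), NS Ly6C-inter cells (42.0), DS5 Ly6C-low cells (41.9) and DS5 Ly6C-inter cells (7.75). By probe count, which also depends on how well each probe binds, Il1b ranked 3 of 754 genes in NS monocytes, 13 in DS5 monocytes, 15 in NS and 14 in DS5 MHCII+ cells, and in Ly6C-inter cells it went from rank 54 in NS to 185 in DS5. The low level of DS5 Ly6C-inter cells did not overlap any other in its counting interval, while the intervals of all other neighbors in this order did. Farther apart in the order, the intervals of NS Ly6C-inter (27.2 to 62.0) and DS5 Ly6C-low cells (24.4 to 67.1) lay below that of NS MHCII+ cells.

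Il18, the other ligand processed by caspase-1, was never above the limit. Its counts were 6, 3, 5 and 1 in the NS samples and 3, 2, 2 and 2 in the DS5 samples, each in the order MHCII+, monocyte, Ly6C-inter and Ly6C-low, which is also used for the other genes. No ratio of DS5 over NS for Il18 had an interval that left out 0.

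Il1rn, the receptor antagonist, reached its highest counts in MHCII+ cells. Its counts were 109, 1, 6 and 4 in the NS samples and 108, 10, 23 and 2 in the DS5 samples. It was above the limit in both MHCII+ samples and, by a fraction of a count, in DS5 Ly6C-inter cells (23 counts against 22.99). Its level was 27.5 per 10000 in NS and 35.6 in DS5 MHCII+ cells, which placed it at rank 66 and 47 of the 754 genes. In DS5 monocytes the level was 25.5 per 10000, close to the MHCII+ level, although the 10 counts behind it did not reach the limit.

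Il1r2, the decoy receptor, was highest in DS5 Ly6C-inter cells. Its counts were 5, 2, 5 and 1 in the NS samples and 8, 4, 51 and 3 in the DS5 samples. The 51 counts in DS5 Ly6C-inter cells were the only ones above the limit, and they gave a level of 35.9 per 10000 against 1.26 to 10.2 in the other 7 samples. In Ly6C-inter cells its rank among the 754 genes went from 206 to 46 after stress.

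Of the inflammasome genes, Nlrp3, the sensor, had counts of 49, 1, 8 and 6 in the NS samples and 41, 5, 8 and 4 in the DS5 samples, and only the MHCII+ samples were above the limit. Its levels were 12.3 per 10000 in NS and 13.5 in DS5 MHCII+ cells, and 3.67 to 13.4 in the other samples. The latter came from counts below the limit over smaller totals, so they do not show whether the MHCII+ cells differed. Casp1, the protease, had counts of 14, 1, 4 and 7 in the NS samples and 10, 4, 8 and 4 in the DS5 samples, above the limit only in NS MHCII+ cells. Pycard, the adaptor, had counts of 4, 1, 1 and 1 in the NS samples and 2, 2, 2 and 1 in the DS5 samples, never above the limit. Neither the adaptor nor Il18 could be measured above background at this depth.

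**Figure D1:**
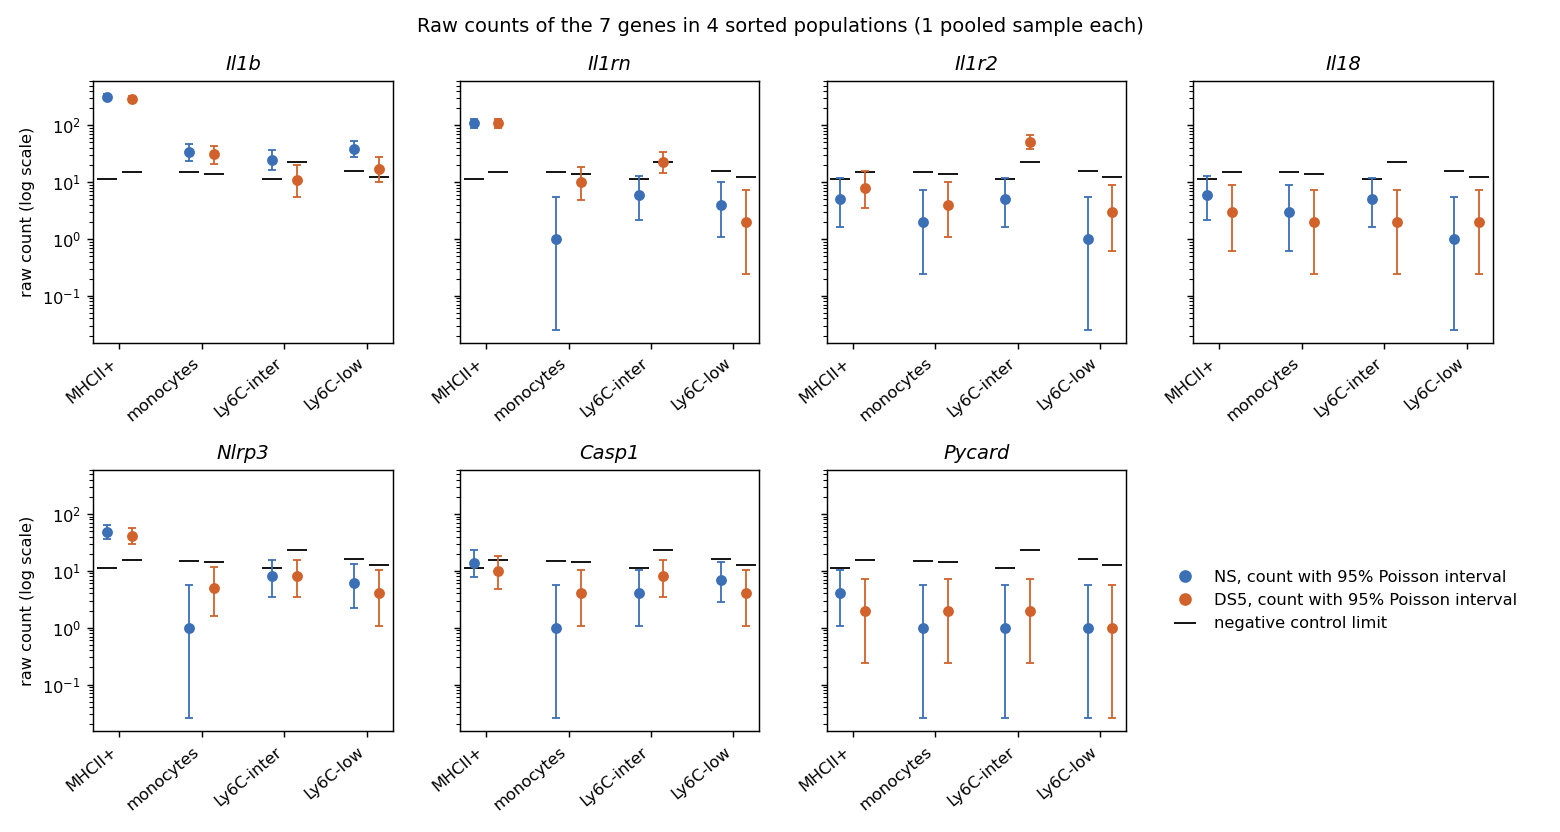
Raw counts (y axis, log scale) of the 7 genes in the 4 sorted populations (x axis) of NS mice (blue) and DS5 mice (orange), 1 pooled sample each. Bars are 95% Poisson intervals of the count and black dashes the negative control limit of each sample. Il1b, Il1rn and Nlrp3 sit above the limit in both MHCII+ samples, and Il1r2 only in DS5 Ly6C-inter cells, with 51 counts.

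The first comparison asked how desiccating stress changed these genes within each population. In MHCII+ cells they differed little. Il1b was higher after stress by a log2 ratio of 0.25 (0.015 to 0.48), Il1rn by 0.37 (-0.02 to 0.77) and Nlrp3 by 0.13 (-0.50 to 0.76). The sign for Il1b depended on the scaling, with -0.14 without scaling and -0.13 when scaled to the positive controls. Of the 7 genes none passed the threshold, while 11.0% of the 754 genes did. The median ratio of the 7 genes was 0.13, against 0.14 for all genes. The intervals for Il1rn and Nlrp3 leave out any difference beyond a log2 ratio of 0.77 in either direction, as far as counting error goes. The MHCII+ gate can also hold dendritic cells, of whose 9 markers 6 were measured, with a summed count of 52 in NS and 43 in DS5, or 13.1 and 14.2 per 10000. Their part in these values was not tested.

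In monocytes, Il1rn stood at 1 count in NS and 10 in DS5, a log2 ratio of 2.80 (-0.02 to 8.24). Nlrp3 stood at 1 and 5 counts, a ratio of 1.80 (-1.36 to 7.36), and Il1b at 34 and 31 counts, a ratio of -0.66 (-1.41 to 0.09). The 2 genes past the threshold were Il1rn and Nlrp3, against 20.7% of all genes, and neither exceeded the limit in monocytes. Casp1, at 1 and 4 counts, had a ratio of 1.47 (-1.86 to 7.10), and it too passed the threshold without scaling and when scaled to reference genes, to positive controls or to totals without the most abundant genes. After subtraction of the negative controls, Nlrp3 and Casp1 were at the floor of 1 in both monocyte samples. Their ratio of -0.72, also the median of all genes, then reflects only the scaling of the totals. The Il1rn ratio became 1.52, with the NS count at the floor. Depth was lowest in NS monocytes, and all of these intervals include 0.

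In Ly6C-inter cells, Il1b was lower after stress and Il1r2 was higher. Il1b went from 25 counts in NS to 11 in DS5, or from 42.0 to 7.75 per 10000, a log2 ratio of -2.44 (-3.61 to -1.36). Il1r2 went from 5 to 51 counts, or from 8.41 to 35.9 per 10000, a log2 ratio of 2.09 (0.78 to 3.78). The groups are single samples, and these were the only intervals in Ly6C-inter cells that left out 0. Il1rn had a ratio of 0.68 (-0.65 to 2.27), Nlrp3 of -1.26 (-2.87 to 0.36) and Il18, on 5 and 2 counts, of -2.58 (-5.97 to 0.03). Of the 7 genes 1 was higher and 2 were lower past the threshold, where 21.2% of all genes passed it, and without scaling 2 were higher and none lower. The median of the 7 genes and that of all 754 were both -0.26. Only 110 genes in NS and 98 in DS5 exceeded the limit, so this median is the ratio of genes near background. Against that median the Il1b ratio was -2.18 and the Il1r2 ratio 2.35. These differences do not change when a whole sample is scaled another way, but they depend on the background level of each sample.

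The total of DS5 Ly6C-inter cells held the 4 abundant genes named above. With the 10 most abundant genes of any sample left out of the totals, the ratio was -2.15 for Il1b and 2.39 for Il1r2. Without any scaling it was -1.18 for Il1b and 3.35 for Il1r2, and with positive controls -1.49 and 3.04. Both of these Il1b ratios were below the threshold in size, and the Il1b ratio scaled to Ppia and Rpl19 was -1.55. The same sample differed in markers of other cells. Before and after stress, Ly6C-inter cells had 19 and 13 counts of the pan-leukocyte gene Ptprc (CD45), the latter below the limit. The totals were 5948 and 14201 counts, so the Ptprc level was also lower after stress. The CD11b gene Itgam, also a marker of the sort, went the other way, with 21 and 161 counts. Of 6 mast cell and basophil genes 5 were measured, and their summed count was 5 and 24, or 8.41 and 16.9 per 10000, with Fcer1a at 1 and 18 counts. That sum was 7 to 13 counts in the other NS samples and 8 to 16 in the other DS5 samples, or 3.28 to 36.7 and 2.97 to 39.4 per 10000. Per 10000 counts, it was thus higher in both monocyte samples (36.7 and 20.4) and in DS5 Ly6C-low cells (39.4) than in DS5 Ly6C-inter cells. No gene of the list exceeded the limit in any sample. Of 14 neutrophil genes 10 were measured, with a summed count of 18 to 34 in the NS samples and 24 to 87 in the DS5 samples. Per 10000 counts this was 7.06 to 80.6 in NS and 7.91 to 104 in DS5, highest in the monocytes of each condition. In Ly6C-inter cells the sum was 34 before and 87 after stress, or 57.2 and 61.3 per 10000. S100a9, which neutrophils and monocytes express, went from 16 to 55 counts, the only one of the 10 above the limit in either sample. Ly6g, which defines neutrophils and was used to discard them in the sort, had 1 count in both, and Cxcr2 had 1 to 4 counts in all samples. Cdh1, an epithelial gene and the only one of 5 epithelial markers measured, went from 2 to 16 counts, below the limit in both. The 9 macrophage genes had a summed count of 450 in NS and 461 in DS5, or 757 and 325 per 10000. The part of these differences in the Il1b and Il1r2 ratios was not tested.

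In Ly6C-low cells, Il1b went from 39 to 17 counts, a log2 ratio of -0.68 (-1.60 to 0.17). Il1r2 and Il18 passed the threshold with 1 count in NS and 3 and 2 counts in DS5, at ratios of 2.10 (-1.54 to 7.81) and 1.52 (-2.75 to 7.40). These were 2 of the 7 genes, against 27.5% of all genes, and neither was above the limit. Il1b had a lower level in DS5 in all of the 3 MHCII- populations and a higher one in MHCII+ cells, but only the intervals in Ly6C-inter and MHCII+ cells left out 0. With the 4 populations as blocks, the mean ratio was -0.88 ± 1.13 (SD, n = 4 populations) for Il1b (two-sided exact sign-flip permutation test, p = 0.25). For Il1r2 it was 1.43 ± 0.80 (SD, n = 4), positive in 4 of 4 populations (p = 0.125 by the same exact test, the smallest that 4 pairs allow), although in 3 of them Il1r2 was below the limit in both conditions. The populations are gates sorted from pooled mice and not independent replicates of stress. These p-values therefore do not measure variation between animals or pools.

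**Figure D2:**
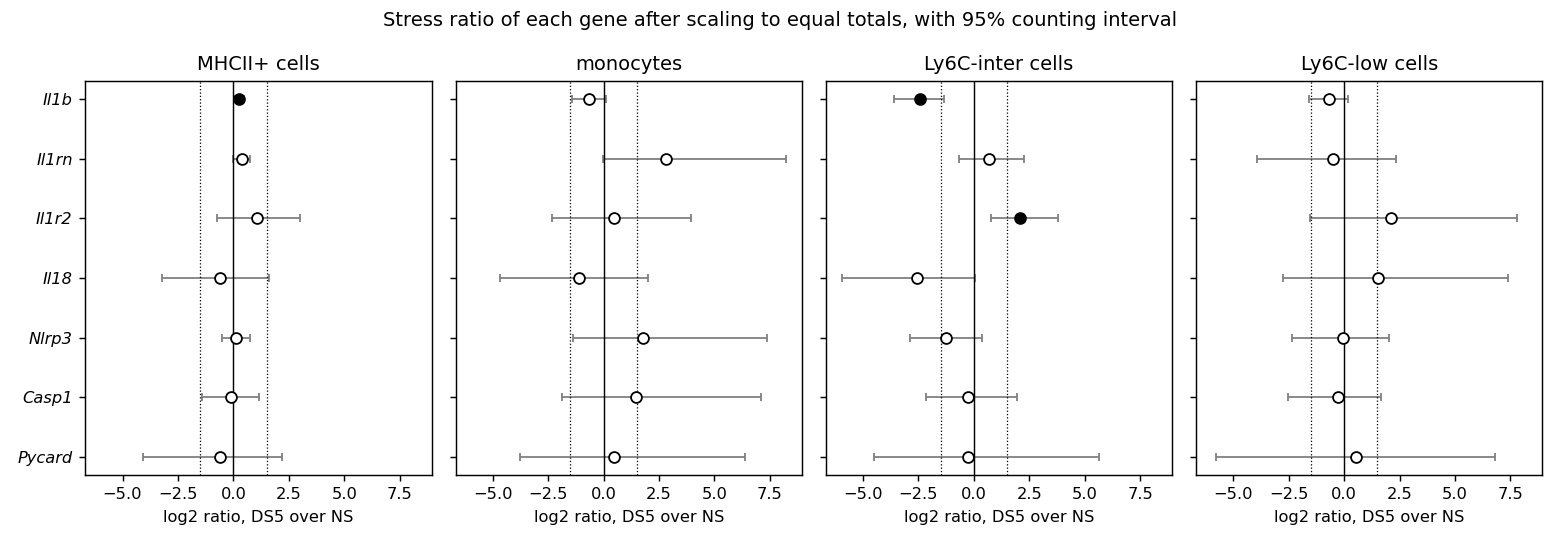
Log2 ratio of DS5 over NS (x axis) for each of the 7 genes (y axis) in the 4 populations, after scaling to equal totals. Points are ratios of 1 sample over 1 sample, filled where the 95% counting interval (bars) leaves out 0, and dotted lines mark the threshold of 1.5 in either direction. Only Il1b (-2.44) and Il1r2 (2.09) in Ly6C-inter cells are both filled and past a dotted line.

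The balance of antagonist to agonist was read within each sample as Il1rn counts per Il1b count, in which scaling cancels. Because each probe binds with its own efficiency, the ratio says nothing of the amounts of the transcripts or proteins and serves to compare samples. Among NS samples it was 0.342 (95% interval 0.272 to 0.426) for MHCII+ cells, 0.240 (0.0805 to 0.599) for Ly6C-inter cells, 0.103 (0.0266 to 0.284) for Ly6C-low cells and 0.0294 (0.000724 to 0.175) for monocytes. Among DS5 samples it was 2.09 (0.979 to 4.75) for Ly6C-inter cells, 0.372 (0.296 to 0.466) for MHCII+ cells, 0.323 (0.141 to 0.675) for monocytes and 0.118 (0.0132 to 0.496) for Ly6C-low cells.

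Samples were then compared by the conditional estimate of the odds ratio of Il1rn to Il1b, which lies slightly nearer to 1 than the quotient of these ratios. In MHCII+ cells the odds after stress were 1.09 times those in NS, with an exact interval of 0.790 to 1.504, and in Ly6C-low cells 1.14 times (0.0950 to 8.90). In Ly6C-inter cells they were 8.38 times those in NS (2.46 to 32.8), with both a higher Il1rn and a lower Il1b count. The 11 Il1b counts in DS5 and the 6 Il1rn counts in NS were below the limit, and the 23 Il1rn counts in DS5 only reached it. In monocytes they were 10.7 times those in NS (1.38 to 490), which rests on the single Il1rn count of the NS sample. With the negative controls subtracted, the odds ratio was 5.25 in monocytes and 44.2 in Ly6C-inter cells. In NS, the odds of MHCII+ cells were 11.6 times those of monocytes (1.90 to 476), 3.33 times those of Ly6C-low cells (1.16 to 13.1) and 1.42 times those of Ly6C-inter cells (0.550 to 4.35). In DS5 they were 1.15 times those of monocytes (0.529 to 2.73), 3.16 times those of Ly6C-low cells (0.730 to 28.6) and 0.179 times those of Ly6C-inter cells (0.0760 to 0.397).

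**Figure D3:**
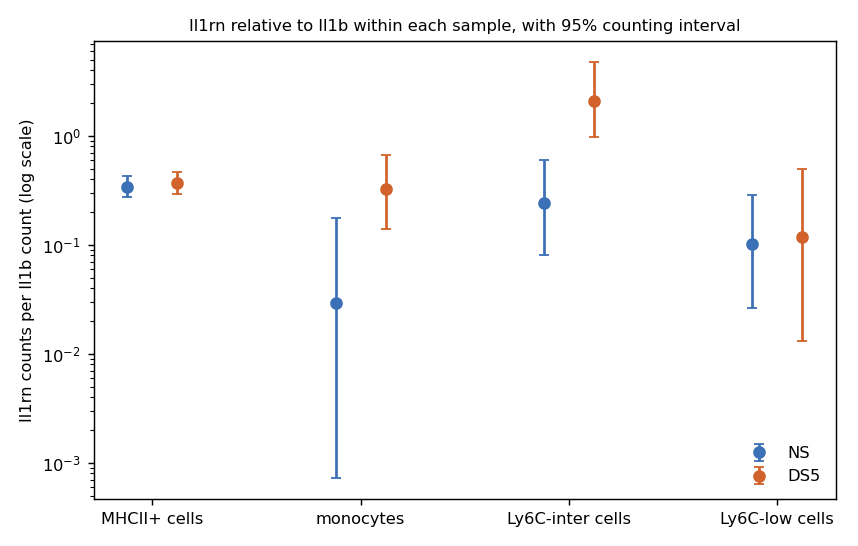
Il1rn counts per Il1b count (y axis, log scale) in each of the 4 populations (x axis) of NS (blue) and DS5 (orange) mice, with 95% counting intervals as bars and 1 pooled sample per point. The ratio is 0.342 and 0.372 in the MHCII+ samples, 0.0294 and 0.323 in the monocyte samples, and reaches 2.09 in DS5 Ly6C-inter cells.

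The second comparison set the MHCII+ cells against each MHCII- population of the same condition. In all 6 of these comparisons the median of all genes lay below 0, between -1.09 and -2.28, after scaling to equal totals, while most genes of the MHCII- samples were below the limit. Relative to that median, which is thus the ratio of genes near background, the differences were 1.51 to 4.72 for Il1b, 2.23 to 5.18 for Il1rn and 1.20 to 4.03 for Nlrp3 on the log2 scale. From the highest ratio down, Il1b ranked 11 to 212 of the 754 genes, Il1rn 9 to 77 and Nlrp3 20 to 132.

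In NS, Il1rn was higher in MHCII+ cells than in monocytes by a log2 ratio of 2.91 (0.40 to 8.22), than in Ly6C-low cells by 1.99 (0.60 to 3.90) and than in Ly6C-inter cells by 1.45 (0.28 to 2.92). Il1b was higher than in Ly6C-inter cells by 0.94 (0.35 to 1.59), differed from Ly6C-low cells by 0.26 (-0.23 to 0.78), and was lower than in monocytes, with a ratio of -0.63 (-1.15 to -0.08). That last direction turned with the scaling, since the ratio was 0.90 when scaled to reference genes, 3.43 when scaled to positive controls and 3.23 when unscaled. Il18 had lower levels in MHCII+ cells than in monocytes (-2.86, -5.09 to -0.23) and Ly6C-inter cells (-2.47, -4.45 to -0.42), both on 6 or fewer counts and both of the opposite sign without scaling (1.0 and 0.26). Il1r2 against Ly6C-inter cells, 5 counts in each, was -2.74 (-4.86 to -0.62) and became 0.00 without scaling. The Nlrp3 intervals all included 0, with a ratio of 1.75 (-0.79 to 7.08) over monocytes.

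Against NS monocytes, 1 of the 7 genes was higher and 2 were lower past the threshold, where 54.0% of all genes passed it. Without scaling 5 were higher and none lower. Against NS Ly6C-inter cells 2 were lower and none higher, with 36.7% of all genes past the threshold, and without scaling 4 were higher and none lower. Against NS Ly6C-low cells none passed, with 36.5% of all genes past it, and without scaling 6 were higher. These counts of genes thus depended on the scaling.

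After stress, Il1b was higher in MHCII+ cells than in Ly6C-inter cells by a log2 ratio of 3.63 (2.76 to 4.64) and than in Ly6C-low cells by 1.19 (0.49 to 1.99), and against monocytes the ratio was 0.28 with 0 inside the interval. Il1b over Ly6C-inter cells stayed past the threshold under every scaling tried, between 2.67 and 5.17. Il1r2 was lower in MHCII+ cells than in Ly6C-inter cells by a ratio of -3.77 (-5.05 to -2.68), and it stayed past the threshold under every scaling, between -4.73 and -2.22. Il1rn was higher than in Ly6C-low cells by 2.85 (0.96 to 5.92) and than in Ly6C-inter cells by 1.14 (0.48 to 1.85). Nlrp3 was higher than in Ly6C-inter cells by 1.26 (0.15 to 2.57).

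Against DS5 monocytes, 2 of the 7 genes were lower and none higher past the threshold (50.1% of all genes passed it), and without scaling 3 were higher and none lower. Against DS5 Ly6C-inter cells 1 was higher and 1 lower (35.0% of all genes), and without scaling 3 were higher and 1 lower. Against DS5 Ly6C-low cells 1 was higher and 1 lower (49.3% of all genes), and without scaling 3 were higher and none lower. Over all 10 comparisons, 18 of 70 ratios passed their threshold, 9 of these had an interval that left out 0, and 6 of these were also above the limit in the sample with the higher level. Of all 754 genes, 11.0% to 54.0% passed the threshold in a comparison, and 3 to 52 genes met all of these conditions. The 6 ratios were Il1b and Il1r2 for DS5 over NS in Ly6C-inter cells, Il1b and Il1r2 for MHCII+ over Ly6C-inter cells in DS5, and Il1rn for MHCII+ cells over NS monocytes and over DS5 Ly6C-low cells. The first 4 of them share the DS5 Ly6C-inter sample. The ratio of Il1rn over NS monocytes fell short of the threshold with negative controls subtracted, at 1.83.

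**Figure D4:**
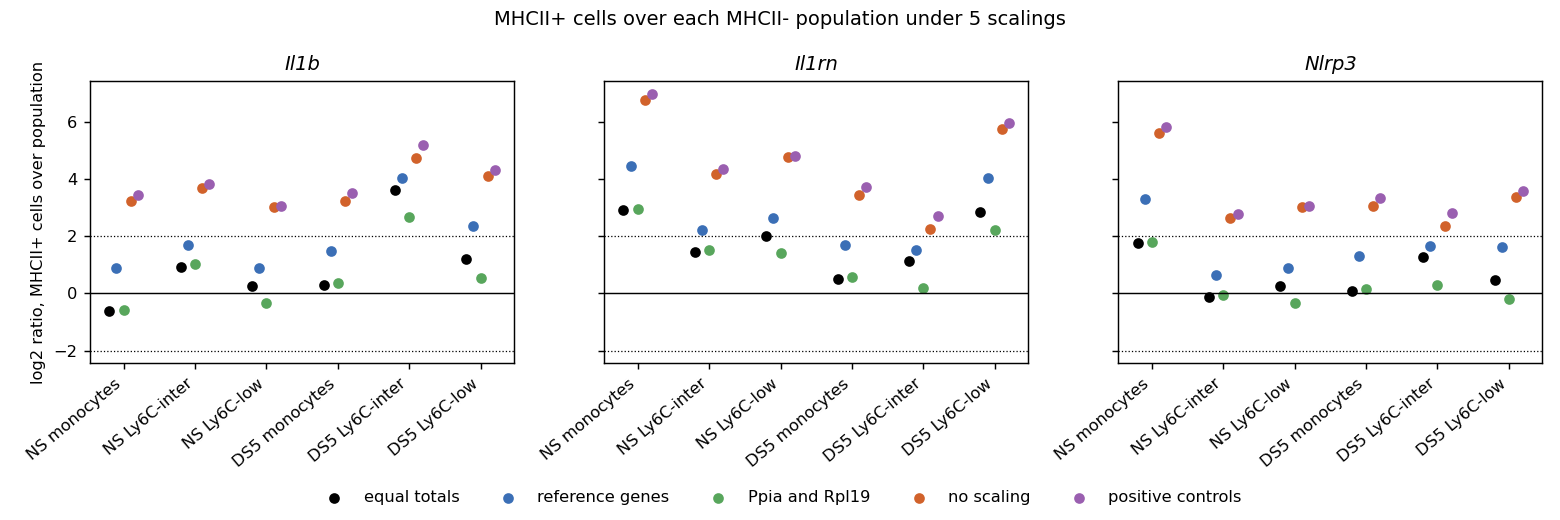
Log2 ratio of MHCII+ cells over each MHCII- population (y axis) for Il1b, Il1rn and Nlrp3 in the 6 comparisons (x axis) under 5 scalings (colors), with dotted lines at the threshold of 2 in either direction. Each point is 1 sample over 1 sample. Il1b over NS monocytes runs from -0.63 with equal totals to 3.43 with positive controls, while Il1b over DS5 Ly6C-inter cells and Il1rn over NS monocytes lie above 2 under all 5 scalings.

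The panel also measured 30 other genes of the IL-1 pathway, among 37 genes of 5 lists of ligands, receptors, inflammasome parts, signaling proteins and commonly induced genes. In MHCII+ cells 1 of the 30 was higher and 1 lower after stress past the threshold (11.0% of all genes passed it). In monocytes 1 was higher and 4 were lower (20.7% of all genes), while 2 and 3 were so among Ly6C-inter (21.2%) and 6 and 2 among Ly6C-low cells (27.5%). In Ly6C-inter cells Ccl2, a chemoattractant for monocytes, had 182 counts before and 152 after stress, a log2 ratio of -1.52 (-1.84 to -1.20) that was no longer past the threshold with the most abundant genes left out of the totals (-1.22) or without scaling (-0.26). Mmp9, a matrix-degrading protease, had 20 and 10 counts there, a ratio of -2.26 (-3.51 to -1.09), which was -1.96 and -1.0 under the same settings. The 10 counts were below the limit. The Mmp9 ratio was short of the threshold without scaling, with positive controls (-1.31) and with Ppia and Rpl19 (-1.37). In Ly6C-low cells Nfkbiz, an IκB-family regulator of genes induced by IL-1, had 43 counts in NS and 8 in DS5 (-1.91, -3.21 to -0.81), and Nfkbia, the NF-κB inhibitor, 21 and 4 counts (-1.88, -3.88 to -0.31). Il1a, the other IL-1 agonist, had 27, 2, 1 and 5 counts in the NS samples and 17, 1, 17 and 2 in the DS5 samples.

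Against NS populations, 10 of the 30 genes were lower and 1 was higher in MHCII+ cells than in monocytes (54.0% of all genes passed), 7 lower and 2 higher than in Ly6C-inter cells (36.7%), and 5 lower than in Ly6C-low cells (36.5%). Against DS5 populations, 7 were lower and 1 higher than in monocytes (50.1%), 3 lower than in Ly6C-inter cells (35.0%), and 8 lower and 1 higher than in Ly6C-low cells (49.3%). Icam1, an adhesion molecule, was higher in MHCII+ cells than in NS monocytes (91 against 1 count, ratio 2.65, 0.13 to 7.96, and 1.56 with negative controls subtracted). Il6, a cytokine induced by IL-1, was higher in MHCII+ cells than in NS Ly6C-inter cells (47 against 1 count, 2.82, 0.27 to 8.15) and than in DS5 Ly6C-low cells (62 against 1, 3.05, 0.52 to 8.38). Ccl2 was higher in MHCII+ cells than in DS5 monocytes (369 against 11 counts, 2.12, 1.26 to 3.13). Tnf, another proinflammatory cytokine, had 28 counts in NS MHCII+ and 19 in NS Ly6C-inter cells, which gave a lower level in MHCII+ cells at equal totals (-2.18, -3.07 to -1.26) and the opposite sign without scaling (0.56) and with positive controls (0.70).

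Among the 7 genes, Il1b alone exceeded the limit in at least 4 samples, so its profile could be set beside those of the other genes. Over the 8 samples, the log2 levels most like it among 96 genes above the limit in at least 4 samples were those of Laptm5 (r = 0.94), a lysosomal membrane protein of blood cells, S100a4 (r = 0.89), a calcium-binding protein, and Cytip (r = 0.84). In Ly6C-inter cells Laptm5 had 36 counts in NS and 27 in DS5, Cytip 24 and 15, and S100a4 14 and 18, against 25 and 11 for Il1b. The totals of these samples were 5948 and 14201 counts, so the levels of all of these genes were lower in DS5. The 8 values share 4 populations, 2 conditions and the scaling of each sample, so the correlations describe these samples only.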

How the data were processed

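The authors hybridized total RNA of each pooled sample to an nCounter panel for mouse myeloid innate immunity (NanoString), and deposited raw counts per probe for 754 genes, 8 negative and 6 positive control probes. The smallest deposited value was 1. Quality control used nSolver software. Its normalization and the genome build are not given in the sources used here. The 7 genes and all gene lists were chosen with earlier results of these data known.

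Counts were scaled to equal totals over the 754 genes and expressed per 10000. Levels were not raised to 1 again after scaling, because that changes ratios of low counts. Log2 ratios were computed for every gene, at the thresholds of the study, with exact 95% intervals that cover counting error only. With 1 sample per group no single comparison could be tested. With the 4 populations as blocks, a pairing chosen after seeing the data, an exact sign-flip permutation test was run on the mean stress ratio. The populations are not independent replicates of stress. The code was tested on simulated data.

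Besides the 7 genes, the text names other pathway genes past the threshold whose interval left out 0 and whose higher count exceeded the negative control limit (at most 5 per comparison), the 3 genes most correlated with any of the 7 that was above that limit in at least 4 samples, and marker genes. Il1a and the 4 abundant genes of DS5 Ly6C-inter cells were named after their values were seen. Alternatives were no scaling, scaling to reference genes, to positive controls or to Ppia and Rpl19, a floor of 1 after scaling, subtraction of the mean negative control, only genes above the limit, and, chosen after seeing the data, totals without the 10 most abundant genes of any sample. Subtracted counts below 1 were set to 1. Of 754 gene names, 744 matched a RefSeq symbol and 9 a synonym, all 7 genes by symbol. The software was scipy 1.17.1, numpy 2.4.6, matplotlib 3.10.9 and pandas 2.3.3 under Python 3.11.15.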

Additional observations from a re-analysis of the deposited data

Results flagged for a closer look

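Il1b moved in opposite directions in a pair of populations. On the log2 scale, DS5 over NS gave 0.25 for MHCII+ and -2.44 for Ly6C-inter cells, and the counting intervals left out 0 on opposite sides. With 1 sample per group, the difference between the populations was not tested. The value for MHCII+ cells changed sign without scaling (-0.14) and with positive controls (-0.13), while that for Ly6C-inter cells kept its sign under all alternatives and lay between -4.24 and -1.18.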

How the results depend on the processing

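Of 490 recomputed ratios of the 7 genes, 411 stayed within the counting interval of the value reported, 74 moved out of it and 5 changed sign among the 9 that had passed the threshold with an interval free of 0. Those 5 were Il18 in MHCII+ cells over NS monocytes (1.0 without scaling, 1.20 with positive controls) and over NS Ly6C-inter cells (0.26 and 0.41), and Il1r2 over NS Ly6C-inter cells (0.14 with positive controls). The number of the 7 genes past the threshold moved as follows, beside changes by 1 gene given at the end. For DS5 over NS it went from 0 to 1 in MHCII+ cells with negative controls subtracted. In monocytes it went from 2 to 1 with negative controls subtracted and to 0 with only genes above the limit. In Ly6C-low cells it went from 2 to 1 without scaling, with Ppia and Rpl19 and with totals without the top genes, and to 0 with reference genes, positive controls, negative controls subtracted or only genes above the limit. For MHCII+ cells over NS monocytes it went from 3 to 5 without scaling and with positive controls, and to 1 above the limit. Over NS Ly6C-inter cells it went from 2 to 4 without scaling, with positive controls and with negative controls subtracted, to 1 with reference genes and to 0 above the limit. Over NS Ly6C-low cells it went from 0 to 6 without scaling and with positive controls, to 5 with negative controls subtracted, and to 1 with reference genes, Ppia and Rpl19, or totals without the top genes. Over DS5 monocytes it went from 2 to 0 with reference genes and above the limit, and to 1 with totals without the top genes. Over DS5 Ly6C-inter cells it went from 2 to 4 without scaling and with positive controls. Over DS5 Ly6C-low cells it went from 2 to 5 with Ppia and Rpl19, to 4 with negative controls subtracted and to 1 above the limit. With negative controls subtracted, the odds ratio of Il1rn to Il1b moved from 8.38 to 44.2 for DS5 over NS in Ly6C-inter cells, and from 0.179 to 0.0724 for MHCII+ over Ly6C-inter cells in DS5. Changes by 1 gene also occurred for DS5 over NS in monocytes (3 without scaling, with reference genes, positive controls or totals without the top genes) and in Ly6C-inter cells (2 without scaling or above the limit, 4 with Ppia and Rpl19 or negative controls subtracted). They occurred as well for MHCII+ cells over NS monocytes (2 with reference genes or totals without the top genes), over DS5 monocytes (3 without scaling, with positive controls or negative controls subtracted), over DS5 Ly6C-inter cells (3 with Ppia and Rpl19 or negative controls subtracted) and over DS5 Ly6C-low cells (3 without scaling and with positive controls). Only genes above the limit means fewer genes counted, and for the other settings the cause was not tested. No paired analysis was possible because each group held 1 sample, as far as replicates within a population go. With the population as block, a pairing chosen after seeing the data, no mean ratio of the 7 genes could reach p under 0.125 in an exact test over 4 pairs, and without scaling the mean was -0.66 for Il1b (p = 0.125, exact) and 1.65 for Il1r2 (p = 0.125, exact). Populations sorted from pooled mice are not independent replicates of stress, so this test does not cover variation between pools. Depth limits Il18 and Pycard in all samples, and Casp1 and Il1r2 in all but 1. Nlrp3 exceeded the limit in 2 samples, Il1rn in 3 and Il1b in 7. Depth also limits all ratios against NS monocytes, where 24 genes exceeded the limit.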

Other observations

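In MHCII+ cells, 4 genes that are commonly induced by IL-1 or with it differed after stress by less than the threshold but with intervals that left out 0. They were picked after their values were seen. Cxcl2, a neutrophil chemoattractant, had 300 counts in NS and 321 in DS5, a log2 ratio of 0.48 (0.25 to 0.72). Il6 had 47 and 62 counts, a ratio of 0.79 (0.22 to 1.37). Ccl2 had 562 and 369 counts, a ratio of -0.22 (-0.41 to -0.03), and Mmp9 41 and 14 counts, a ratio of -1.16 (-2.15 to -0.26). The raw counts of these genes moved in the same directions as the scaled levels. Il1rl1, the receptor for IL-33, had 22 counts in NS and 15 in DS5 MHCII+ cells, and 15 and 8 in Ly6C-low cells, with 1 to 4 counts elsewhere. Only the 22 counts exceeded the limit of their sample.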
